A study of Homo sapiens with 9 samples.

Results

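This comparison asks which genes differed in TC32 cells when SB-505124 was added to a Wnt3a treatment already under way. It takes 6 of the series' 9 samples, chosen by their labels: 3 libraries of cells given Wnt3a and 3 of cells given Wnt3a and SB-505124. TC32 is an established human cell line from an Ewing sarcoma, a tumour of bone and soft tissue driven by the fusion oncogene EWSR1-FLI1. The cells of all 6 libraries received Wnt3a for 28 h. After the first 4 h, the Wnt3a group received DMSO, the solvent of the inhibitor, and the inhibitor group received SB-505124, for the remaining 24 h. Cells grew in RPMI medium with fetal bovine serum, polyadenylated RNA was extracted, and libraries were made with a stranded kit. The other 3 libraries are vehicle controls and were not used here. No group received SB-505124 without Wnt3a, so the effect of the inhibitor in cells without added Wnt3a cannot be read from these samples. A single cell line was studied. Whether the 3 libraries of a group are separate cultures is not in the labels. The p-values therefore rest on library-to-library spread alone, and that spread may be technical.

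TGF-β and activins bind pairs of type II and type I receptors on the cell surface. The type I receptors, which include TGFBR1 and ACVR1B, are kinases that phosphorylate SMAD2 and SMAD3, and these join SMAD4 in the nucleus to regulate genes of the extracellular matrix, of the cytoskeleton and of negative feedback on the pathway itself. SB-505124 is a small molecule that blocks the kinases of the type I receptors for TGF-β, activin and Nodal and largely spares those for BMPs. Wnt3a acts through a separate pathway, in which Frizzled and LRP receptors stabilise β-catenin and so turn on targets such as AXIN2.

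Levels are given as CPM, counts scaled to a common library size with TMM factors, in the order of replicates 1, 2 and 3. Changes are log2 fold changes of inhibitor over Wnt3a libraries, ± the standard error (SE), and p-values are from the quasi-likelihood test of edgeR, adjusted over all genes tested. A gene is said to have risen or fallen where its adjusted p was under 0.05. Of 17107 genes tested, 8245 passed (48.2%), of which 4046 rose (23.7% of the genes tested) and 4199 fell (24.5%). A change of at least 2-fold was called for 1228 genes that rose (7.18%) and for 2411 that fell (14.1%). The libraries of both groups did not overlap for 10108 genes (59.1%). These shares are the background for every count below. The near balance of rises and falls depends on the scaling. It held with DESeq2 and its own size factors, where 51.3% of the genes called rose and 48.7% fell. Scaled by library totals, 31.9% of the genes called rose and 68.1% fell, and the median change of all genes moved from -0.05 to -0.28. With TPM, tested by limma-trend on log2(TPM + 1), 29.6% rose and 70.4% fell. All changes given here are therefore relative to the other genes, and the direction of those smaller than about that shift can depend on the scaling.

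Total counts ran from 36903919 to 42976799 in the Wnt3a libraries and from 28844348 to 37540072 in the inhibitor libraries. Genes with at least 1 count numbered 25662 to 26802 with Wnt3a and 23196 to 23250 with the inhibitor. Inhibitor replicate 2 had a larger total than Wnt3a replicate 1, 37540072 against 36903919 counts, and fewer genes detected, 23234 against 26000. The 10 most abundant genes held 5.87 to 6.53% of the counts with Wnt3a and 7.5 to 8.26% with the inhibitor, and the share of mitochondrial transcripts overlapped, at 4.22 to 4.87% and 3.85 to 5.12%. In a principal component analysis of the 6 libraries, component 1 (62.6% of the variance) separated the treatments. Component 2 (18.3%) set inhibitor replicate 1, with a score of 74.1, apart from its group, where the scores were -30.1 for replicate 2 and -29.5 for replicate 3. Without it 9463 genes were called, of which 4597 rose and 4866 fell. Of the genes named below, ID1 and FLI1 alone moved across the threshold without it, both to a rise, and TGFB1 and no other changed sign. Counts without this library stand beside the main lists.

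**Figure D1:**
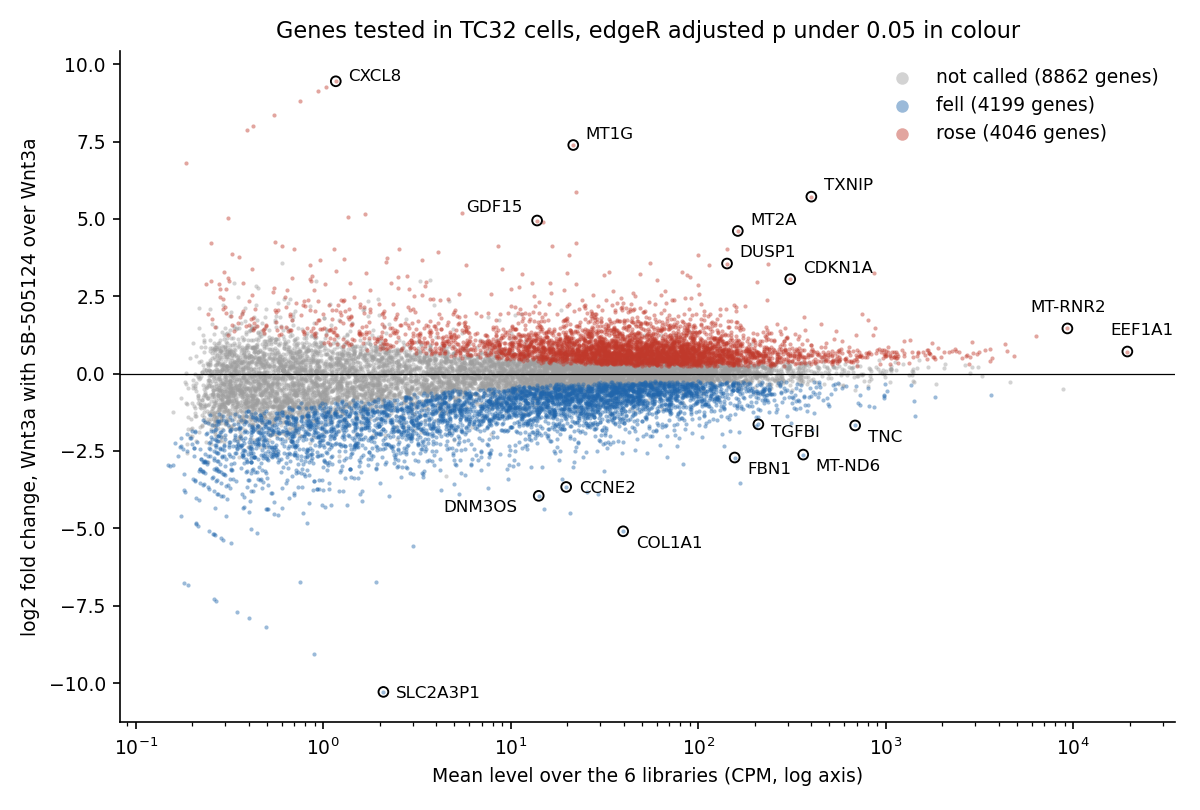
Each point is 1 of 17107 genes, by its mean level over the 6 libraries (CPM, log axis) and its log2 fold change of inhibitor over Wnt3a libraries. Red points rose, blue points fell and grey points were not called at an edgeR adjusted p of 0.05. Circled genes are named, CXCL8 and SLC2A3P1 have 0 counts in one group, and the position of such genes on the vertical axis depends on a prior count.

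Among the genes of negative feedback on the TGF-β pathway, PMEPA1 and LDLRAD4 fell, and SMAD7 and SKIL were not called. PMEPA1, a membrane protein that binds SMADs and limits TGF-β signalling, was at 52.6, 50.5 and 39.6 CPM in the Wnt3a libraries and at 12.9, 13.9 and 13.8 CPM in the inhibitor libraries. LDLRAD4, a relative of PMEPA1 with the same role, was at 57, 49.2 and 45.4 CPM and then at 13.1, 13.5 and 13.6 CPM. Both genes lay lower in every inhibitor library than in any Wnt3a library, and inhibitor replicate 1 did not stand apart for either. PMEPA1 fell by 1.81 ± 0.14 (adjusted p = 0.0001) and LDLRAD4 fell by 1.92 ± 0.12 (adjusted p = 7.9e-05), 3.51-fold and 3.78-fold lower. SMAD7, the inhibitory SMAD that recruits ubiquitin ligases to the type I receptor, was at 16.8, 18.1 and 18.3 CPM and 11.3, 15.3 and 16.9 CPM, and its change of -0.29 ± 0.17 was not called (adjusted p = 0.18). With library totals, with effective-length offsets and with TPM its fall passed the threshold. SKIL, a corepressor of SMADs that is itself a SMAD target, was at 26.1, 24.8 and 24 CPM and 23.9, 22.8 and 21.8 CPM. The groups met without overlap, Wnt3a replicate 3 lying next to inhibitor replicate 1, and the change of -0.13 ± 0.11 was not called (adjusted p = 0.34). It passed as a fall with library totals and had the opposite sign with effective-length offsets.

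Among the receptors, TGFBR1, the kinase that SB-505124 blocks, was at 23.7, 20.6 and 23.2 CPM with Wnt3a and at 11.7, 6.37 and 7.57 CPM with the inhibitor, a log2 change of -1.40 ± 0.23 (adjusted p = 0.0018). The groups did not overlap. TGFBR2, the type II receptor for TGF-β, went from a mean of 12.3 to 7.22 CPM, a log2 change of -0.76 ± 0.26 with an adjusted p of 0.041 that did not hold when any library other than inhibitor replicate 1 was left out. ACVR1B, the activin type I receptor, rose by 0.60 ± 0.09 (adjusted p = 0.0011), a call that was lost with TPM. ACVR1C was among the genes not tested for low counts. Of the ligands, TGFB2 went from 180.5, 129 and 136 CPM to 326, 323 and 324 CPM and rose by 1.12 ± 0.14 (adjusted p = 0.0005), while TGFB1 and TGFB3 changed by -0.12 ± 0.34 and -0.10 ± 0.17 and were not called (adjusted p = 0.8 and 0.65), though both passed as falls with TPM. Proteins that hold ligands in the matrix or bind them were lower. LTBP1, which tethers latent TGF-β to the matrix, went from 185, 139 and 118 CPM to 72.2, 46.1 and 45.5 CPM, and FST, the secreted binder of activin, from 7.19, 5.92 and 7.38 CPM to 1.88, 1.35 and 1.81 CPM. They fell, with log2 changes of -1.43 ± 0.23 and -2.02 ± 0.24 (adjusted p = 0.0017 and 0.00044). GDF11, a ligand of the activin branch, fell by 1.11 ± 0.17 (adjusted p = 0.0014). Over the 24 ligands, activators and receptors tested, 4 rose (16.7%) and 7 fell (29.2%), with a median of -0.17. Leaving out Wnt3a replicate 3 left 4 that fell.

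The SMADs themselves did not move together. SMAD2 was at 69.6, 63.2 and 69.7 CPM and 122, 120.0 and 115 CPM, a rise of 0.82 ± 0.09 (adjusted p = 0.00034), and SMAD4 rose by 0.74 ± 0.08 (adjusted p = 0.00033). SMAD3, the partner of SMAD2, was at 60.9, 66.2 and 57.1 CPM and 42.1, 30.5 and 33.2 CPM and fell by 0.80 ± 0.14 (adjusted p = 0.0024). All 3 genes had no overlap between groups. Among the SMADs of the BMP branch, SMAD9 rose from 41.5, 63.3 and 73.2 CPM to 172, 196 and 190.3 CPM, by 1.65 ± 0.20 (adjusted p = 0.00048), and SMAD5 fell by 1.23 ± 0.12 (adjusted p = 0.00024). Of the 26 SMADs, corepressors and ubiquitin ligases tested, 9 rose and 6 fell, and under library totals 6 rose and 9 fell. Leaving out 1 library gave 7 to 10 rises and 4 to 5 falls.

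The BMP branch, whose type I receptors SB-505124 largely spares, went in both directions, in shares near those of all genes tested. The ID genes encode inhibitors of helix-loop-helix factors and are the usual readout of BMP signalling. ID1 was at 29.6, 51.8 and 52.1 CPM and 34.4, 79.7 and 88.3 CPM, with the groups overlapping and a change of 0.60 ± 0.35 that was not called (adjusted p = 0.19). It passed the threshold as a rise without inhibitor replicate 1, the lowest of the inhibitor libraries for this gene. ID2 rose by 0.55 ± 0.13 (adjusted p = 0.009), a call lost with TPM, and ID3 changed by -0.13 ± 0.12 and was not called (adjusted p = 0.39), but passed as a fall with library totals and with TPM. GREM1, a secreted antagonist of BMPs, went from 23.1, 27.5 and 63.9 CPM to 2.32, 5.49 and 6.2 CPM and fell by 3.02 ± 0.49 (adjusted p = 0.0018), with no overlap. ACVR1, a BMP type I receptor, rose by 0.73 ± 0.10 (adjusted p = 0.0011). Of 28 BMP and ID genes tested, 7 rose and 6 fell, 5 and 9 with library totals and 4 and 9 with TPM. Without Wnt3a replicate 1, Wnt3a replicate 2, inhibitor replicate 2 or inhibitor replicate 3, 4 rose, and without inhibitor replicate 2, 3 fell.

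Many genes of the extracellular matrix fell. Of 29 collagen genes tested, 11 fell and 0 rose, with a median change of -0.68, and of 61 matrix glycoproteins 29 fell and 6 rose, with a median of -0.70. Both shares of falls, 37.9% and 47.5%, stand beside 24.5% of all genes tested, whose median change was -0.05. The falls were 12 and 31 without inhibitor replicate 1, 8 and 22 without Wnt3a replicate 1, and 9 and 23 without inhibitor replicate 2, the other fits lying between. With library totals they were 13 and 33, with TPM 12 and 29.

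The 10 fibroblast markers, which include collagens of this list, summed to 477 to 832 CPM with Wnt3a and to 323 to 333 CPM with the inhibitor. Of these 10, 5 fell, 3 of them the collagens COL1A1, COL1A2 and COL6A3, and the others THY1 and PDGFRB, with changes of -0.89 ± 0.18 and -0.85 ± 0.18 (adjusted p = 0.0056 and 0.0062), while LUM changed by 0.35 ± 0.14 and was not called (adjusted p = 0.077). The part of these marker levels in the fall of the matrix genes was not tested. In bulk RNA, fewer cells of a type and less RNA per cell cannot be told apart.

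COL1A1 (ENSG00000108821.13, chromosome 17, 50183289 to 50201632), the α1 chain of fibrillar collagen I, was at 108, 81.9 and 42.2 CPM in the Wnt3a libraries and 2.94, 1.73 and 2.15 CPM in the inhibitor libraries. Its partner chain COL1A2 (chromosome 7, 94394561 to 94431232) was at 58.2, 41.6 and 18.7 CPM and 2.57, 1.38 and 1.28 CPM. For both genes Wnt3a replicate 3 was the lowest of its group and still lay far above every inhibitor library. COL6A3, a chain of the microfibrillar collagen VI, was at 41.8, 27.4 and 17.1 CPM and 1.8, 1.17 and 1.18 CPM. The log2 changes were -5.10 ± 0.39, -4.51 ± 0.48 and -4.38 ± 0.38 (adjusted p = 0.0001, 0.00031 and 0.00015), or 34.2-fold, 22.9-fold and 20.8-fold. COL5A1, which seeds collagen I fibrils, fell from 133, 142 and 117 CPM to 41.2, 38.4 and 46.4 CPM, a log2 change of -1.64 ± 0.12 (adjusted p = 8.6e-05). The basement-membrane collagens COL4A1 and COL18A1 fell, with log2 changes of -1.14 ± 0.17 and -1.53 ± 0.27 (adjusted p = 0.0011 and 0.0028).

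The members of collagen heterotrimers did not all follow. COL6A1 and COL6A2, which assemble with COL6A3, changed by -0.39 ± 0.32 and -0.22 ± 0.18 and were not called (adjusted p = 0.34 and 0.33). The difference between these chains and COL6A3 was not itself tested.

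Several elastic-fibre and adhesive glycoproteins fell. FBN1, the main protein of microfibrils, which also hold latent TGF-β, was at 336, 257 and 221 CPM and 45.6, 38.4 and 40.3 CPM and fell by 2.71 ± 0.17 (adjusted p = 7.9e-05). FBLN5, needed for elastic-fibre assembly, was at 23.3, 19.6 and 11.8 CPM and 1.95, 2.55 and 2.34 CPM and fell by 2.99 ± 0.28 (adjusted p = 0.0002). No inhibitor library of either gene reached the level of any Wnt3a library. ASPN, a small leucine-rich proteoglycan of the matrix, was at 2.43, 2.34 and 1.53 CPM and 0.184, 0.147 and 0 CPM, and POSTN, a matrix protein of tissue under repair, at 26.5, 22 and 9.13 CPM and 3.35, 1.97 and 2.31 CPM. Their log2 changes were -4.24 ± 0.71 and -2.92 ± 0.41 (adjusted p = 0.0022 and 0.00099). TNC, an anti-adhesive glycoprotein of embryonic and tumour matrix, was at 1128, 746 and 1264 CPM and 251, 359 and 373 CPM, a log2 change of -1.68 ± 0.23 (adjusted p = 0.00082), and it had one of the 5 largest losses in CPM of any gene that passed with no overlap. TGFBI, an adhesive matrix protein whose name marks it as TGF-β-induced, was at 401, 244 and 305 CPM and 95, 107 and 103 CPM and fell by 1.64 ± 0.18 (adjusted p = 0.00033). Of the IGF-binding proteins, which also bind matrix, IGFBP5 and IGFBP7 fell, with log2 changes of -1.67 ± 0.18 and -2.16 ± 0.26 (adjusted p = 0.00035 and 0.00048). Fibronectin, encoded by FN1 and a textbook TGF-β target, was at 2164, 1729 and 2292 CPM and 1256, 1994 and 1673 CPM, and its change of -0.33 ± 0.18 was not called (adjusted p = 0.17), though it passed as a fall with library totals and with TPM.

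DNM3OS, a long noncoding RNA that is the precursor of the miR-199a and miR-214 cluster, had one of the 15 largest falls, from 28.7, 33.2 and 17.5 CPM to 2.8, 0.969 and 1.43 CPM. It fell by 3.95 ± 0.41 (adjusted p = 0.00029), and the strand setting of the counting, which decides whether its reads can be told from those of DNM3 on the opposite strand, is not given in the sources used here.

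Enzymes that modify or degrade matrix were split. LOXL2, which crosslinks collagen, was at 9.14, 6.52 and 2.97 CPM and 0.956, 0.528 and 0.374 CPM and fell by 3.33 ± 0.52 (adjusted p = 0.0015). SERPINH1, the collagen chaperone HSP47, fell by 0.97 ± 0.12 and ADAM19, a membrane protease, fell by 1.93 ± 0.18 (adjusted p = 0.00061 and 0.00019). MMP14, the membrane collagenase, went the other way, from 169, 155 and 161 CPM to 330.2, 344 and 357 CPM, and rose by 1.09 ± 0.09 (adjusted p = 0.00012), while its relative MMP15 fell by 3.01 ± 0.32 (adjusted p = 0.00034). Of 45 matrix enzymes and inhibitors tested, 5 rose and 15 fell, and the falls numbered 9 without Wnt3a replicate 2 and 9 without inhibitor replicate 2. Among 17 integrins, the receptors of matrix, ITGA11, a collagen receptor, fell by 3.16 ± 0.43 and ITGB5 fell by 1.08 ± 0.10 (adjusted p = 0.00087 and 0.00018). ITGB8, whose integrin activates latent TGF-β, rose by 0.99 ± 0.17 (adjusted p = 0.0025). It was the only integrin of the 17 that rose, against 4 that fell (23.5%, near the 24.5% of all genes tested). Without Wnt3a replicate 2 or without inhibitor replicate 1 a second integrin passed as risen, making 2.

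**Figure D2:**
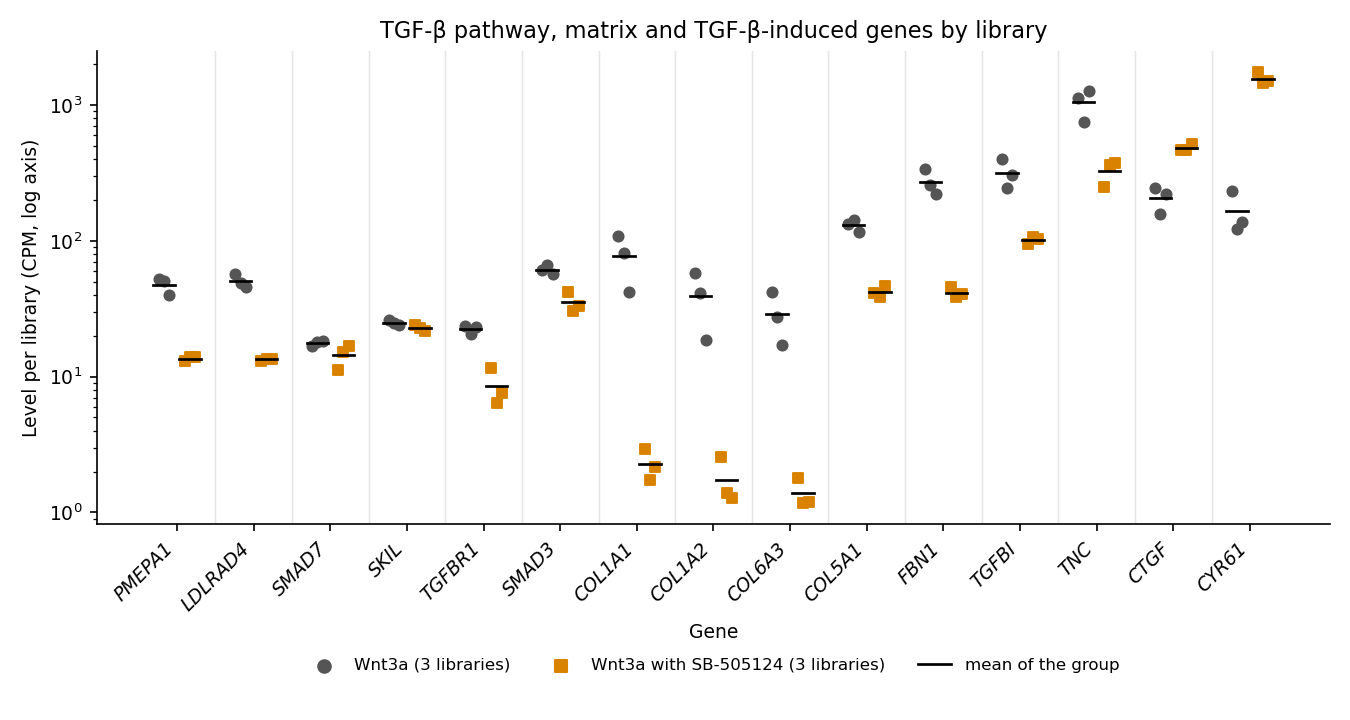
Level in each library (CPM, log axis) of 15 genes of the TGF-β pathway, of the matrix and of the TGF-β-induced list. Grey circles are the 3 Wnt3a libraries, orange squares the 3 inhibitor libraries and black bars the group means. PMEPA1, LDLRAD4 and the matrix genes from COL1A1 to TNC are lower in every inhibitor library, CTGF and CYR61 are higher in every one, and SMAD7 and SKIL differ little.

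A list of 51 genes that TGF-β induces in many cell types held members that fell and members that rose. Of these, 27 fell, 8 rose and the median change was -0.87. Without inhibitor replicate 1, 28 fell and 7 rose, leaving out any 1 library gave 6 to 8 rises and 24 to 28 falls, and with library totals 32 fell and 7 rose. The members that rose include CTGF, CYR61, SNAI2 and CDKN1A, several of which are also known targets of YAP/TAZ, p53 or the serum response. CTGF was at 246, 157 and 220.4 CPM and 469, 464 and 519.5 CPM, and CYR61, which is of the same family of matricellular proteins, at 234, 121 and 139 CPM and 1743, 1442 and 1505 CPM. They rose by 1.22 ± 0.16 and 3.25 ± 0.25 (adjusted p = 0.0008 and 0.00011), and for both genes every inhibitor library lay above every Wnt3a library. ANGPTL4, a secreted lipase inhibitor induced by TGF-β in metastasis, fell by 1.89 ± 0.16 (adjusted p = 0.00015).

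YAP and TAZ are transcriptional coactivators that respond to cell shape and tension, and CTGF and CYR61 are their best-known targets. Of 26 YAP/TAZ targets tested, 14 rose and 3 fell, with a median of 0.55 and 12 and 4 under library totals. AMOTL2, a scaffold that restrains YAP, went from 138, 132 and 121 CPM to 329, 461 and 398 CPM and rose by 1.6 ± 0.14 (adjusted p = 0.00015). DLC1, a RhoGAP, rose by 1.36 ± 0.13 and NUAK2, a kinase, by 1.91 ± 0.16 (adjusted p = 0.00019 and 0.00015). Each of the 6 fits that leave out 1 library called 14 of these genes as risen. Genes of actin and contraction had no direction that held under every scaling. With TMM factors 14 of 45 rose and 7 fell, and with library totals 7 rose and 13 fell. Without inhibitor replicate 1, 17 rose and 7 fell. Without Wnt3a replicate 2 or without inhibitor replicate 2, 8 rose, and without inhibitor replicate 3, 9. ACTG1, cytoplasmic γ-actin, and VIM, the intermediate filament protein vimentin, had 2 of the 5 largest gains in CPM. ACTG1 went from 4055, 3301 and 4166 CPM to 9620.3, 8031 and 8883 CPM and VIM from 2729, 2397 and 3691 CPM to 5300.2, 5826 and 5954 CPM, by 1.2 ± 0.13 and 0.95 ± 0.17 (adjusted p = 0.00034 and 0.0024). FHL2, a cofactor of serum response factor, rose by 1.40 ± 0.14 and SRF itself by 0.87 ± 0.11 (adjusted p = 0.00024 and 0.00053). TUBA1B, an α-tubulin, had one of the 5 largest losses, from 2580.2, 2306 and 2021 CPM to 1244, 1395 and 1440.3 CPM, a log2 change of -0.76 ± 0.12 (adjusted p = 0.0017). The smooth-muscle actin ACTA2, a usual marker of TGF-β-driven myofibroblasts, changed by -0.32 ± 0.22 and was not called (adjusted p = 0.26).

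Transcription factors such as SNAI2, ZEB1 and TWIST1 drive the epithelial-to-mesenchymal transition that TGF-β induces in epithelial cells. Of 16 tested, 6 rose and 0 fell, and with library totals 6 rose and 3 fell. Without Wnt3a replicate 1 or without inhibitor replicate 1, 1 passed as fallen. SNAI2 was at 8.34, 10.7 and 24.1 CPM and 72.1, 60.8 and 58.8 CPM, and ZEB1 at 23.5, 18.7 and 20.1 CPM and 54.4, 51.8 and 44.5 CPM. Every inhibitor library was higher than every Wnt3a library, with rises of 2.15 ± 0.36 and 1.27 ± 0.13 (adjusted p = 0.0022 and 0.00027). TWIST1 and FOXC1, both mesenchymal regulators, rose by 1.09 ± 0.16 and 1.21 ± 0.17 (adjusted p = 0.0011 and 0.001).

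All 6 libraries come from cells given Wnt3a, so the Wnt genes compare levels under Wnt3a with and without the inhibitor. AXIN2, the feedback scaffold that β-catenin induces in most tissues, was at 17.7, 23 and 18.6 CPM and 27.1, 34.5 and 28.9 CPM and rose by 0.61 ± 0.15 (adjusted p = 0.011), a call lost with library totals and with TPM. NKD1, a feedback inhibitor that binds Dishevelled, was at 44.4, 79 and 54.7 CPM and 52.4, 49 and 51.9 CPM, overlapping between groups, and changed by -0.22 ± 0.19 (adjusted p = 0.38). Other targets fell. LGR5, the receptor for R-spondins, was at 21.2, 21.4 and 16.3 CPM and 11.7, 7.4 and 7.08 CPM and fell by 1.17 ± 0.23 (adjusted p = 0.0039), and NKD2 and ZNRF3, the ligase that removes Frizzled, fell, with log2 changes of -1.38 ± 0.20 and -0.84 ± 0.15 (adjusted p = 0.0012 and 0.003). Of the secreted inhibitors of Wnt, WIF1 fell from 40.4, 43.7 and 28.6 CPM to 9.49, 5.4 and 5.21 CPM, a log2 change of -2.49 ± 0.27 (adjusted p = 0.00036), while DKK1, which blocks LRP5 and LRP6, went from 13.6, 9.65 and 48.7 CPM to 161, 186 and 178 CPM and rose by 2.87 ± 0.56 (adjusted p = 0.0041). CCND1, cyclin D1, had one of the 5 largest losses in CPM, from 1567, 1689 and 2267 CPM to 883, 986 and 1096 CPM, a log2 change of -0.90 ± 0.16 (adjusted p = 0.0027). Of 32 Wnt targets tested, 6 rose (18.8%) and 9 fell (28.1%), against 23.7% and 24.5% of all genes tested. With library totals 2 rose and 13 fell, and with TPM 2 and 10. Without inhibitor replicate 3, 3 rose, and without Wnt3a replicate 1, inhibitor replicate 2 or inhibitor replicate 3, 5 fell.

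Among 48 parts of the Wnt pathway tested, 11 rose and 12 fell, 6 and 15 with library totals and 4 and 9 with TPM. PYGO2, a nuclear cofactor of β-catenin, fell from 105, 106 and 97.1 CPM to 34.2, 33.3 and 40.7 CPM, a log2 change of -1.51 ± 0.11 (adjusted p = 9.1e-05). The receptors LRP5 and FZD2 fell, with log2 changes of -0.88 ± 0.11 and -1.29 ± 0.19 (adjusted p = 0.00061 and 0.0011). WNT5A, a ligand of the β-catenin-independent branch that TGF-β also induces, fell by 0.87 ± 0.14 (adjusted p = 0.0019), and WLS, which carries Wnt ligands out of the cell, rose by 0.85 ± 0.10 (adjusted p = 0.00041). These counts moved with single libraries: 6 rose without Wnt3a replicate 1, 7 without Wnt3a replicate 2 and 6 without inhibitor replicate 2, and 7 fell without Wnt3a replicate 2.

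Most tested targets of p53, the transcription factor that answers DNA damage and other stress, rose. Of 36 tested, 30 rose (83.3%, against 23.7% of all genes) and 0 fell, with a median of 1.23. With library totals 27 rose and 0 fell, and with TPM 24 rose and 0 fell. Leaving out 1 library gave 28 to 30 rises and 0 to 1 falls, the single fall coming without inhibitor replicate 1. CDKN1A, the cyclin-dependent kinase inhibitor p21, was at 56.9, 53.1 and 90.0 CPM and 349, 624 and 684 CPM, inhibitor replicate 1 being the lowest of its group, and rose by 3.05 ± 0.31 (adjusted p = 0.00026), 8.29-fold. BBC3, the pro-apoptotic BH3 protein PUMA, was at 8.91, 8.13 and 8.73 CPM and 65.1, 125 and 118 CPM, a rise of 3.58 ± 0.25 (adjusted p = 8.5e-05). PLK3 and AEN, a kinase and a nuclease of the damage response, were at 12.9, 11.4 and 15.5 and 53.5, 50.5 and 59.7 CPM with Wnt3a and at 103, 109 and 111 and 248, 259 and 257 CPM with the inhibitor. These genes had no overlap between groups, with rises of 3.02 ± 0.13 and 2.22 ± 0.10 (adjusted p = 3.0e-05 and 3.0e-05). DDB2, which recognises ultraviolet damage, rose by 1.87 ± 0.10, SESN1, an antioxidant regulator of mTORC1, by 2.53 ± 0.16, and MDM2, the ligase that removes p53, by 1.12 ± 0.14 (adjusted p = 5.4e-05, 7.5e-05 and 0.00057). PLK2, a kinase of the same family as PLK3, went from 2.2, 0.972 and 3.55 CPM to 38.4, 48.4 and 39.4 CPM, by 4.23 ± 0.40 (adjusted p = 0.00021). GDF15, a stress-induced cytokine of the TGF-β superfamily, was at 0.476, 0.11 and 1.99 CPM and 5.66, 37.1 and 37.6 CPM and rose by 4.95 ± 1.0 (adjusted p = 0.0048), with inhibitor replicate 1 far below the other inhibitor libraries and still above every Wnt3a library.

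Immediate-early genes are those that cells switch on within minutes to hours of a stimulus without new protein synthesis. Of 38 tested, 25 rose and 1 fell, with a median of 1.24, with library totals 21 rose and 2 fell, and leaving out 1 library gave 20 to 29 rises and 1 fall each time, with 28 rises without inhibitor replicate 1. DUSP1, a phosphatase that inactivates MAP kinases, was at 21.6, 21.2 and 24 CPM and 318, 234 and 235 CPM and rose by 3.56 ± 0.15 (adjusted p = 2.8e-05). ATF3, a stress-induced repressor, was at 13.8, 6.98 and 18.2 CPM and 179, 215 and 164 CPM, a rise of 3.84 ± 0.33 (adjusted p = 0.00015). Neither gene had overlapping groups. NR4A1, FOSL2 and ZFP36, an orphan nuclear receptor, an AP-1 subunit and a protein that destabilises cytokine mRNAs, rose by 2.24 ± 0.25, 1.74 ± 0.20 and 1.93 ± 0.23 (adjusted p = 0.00036, 0.00043 and 0.00046). Of 25 genes that ERK signalling induces and that mostly restrain it, 14 rose and 2 fell, with a median of 0.86. DUSP5, a nuclear ERK phosphatase, went from 2.85, 2.28 and 6.2 CPM to 43.8, 31.6 and 33.3 CPM, a rise of 3.26 ± 0.37, and the receptor kinase EPHA2 rose by 1.90 ± 0.19 (adjusted p = 0.0004 and 0.00026). EPHA4, of the same family, fell by 1.14 ± 0.11 (adjusted p = 0.00025).

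Single genes of the integrated stress response and of the unfolded protein response rose by several-fold, while their list was split. PPP1R15A, the subunit GADD34 that reverses the phosphorylation of eIF2α, was at 35.7, 35.1 and 40.4 CPM and 412, 481 and 408 CPM and rose by 3.55 ± 0.12 (adjusted p = 2.8e-05). GADD45A, a growth-arrest gene on both the p53 and the YAP/TAZ lists, was at 16.7, 15 and 23.7 CPM and 145, 266 and 217 CPM and rose by 3.50 ± 0.27 (adjusted p = 0.0001). All 3 inhibitor libraries of each gene exceeded all 3 Wnt3a libraries. DNAJB9, a chaperone of the endoplasmic reticulum, rose by 2.55 ± 0.14 and DDIT3, the factor CHOP, by 2.39 ± 0.25 (adjusted p = 5.5e-05 and 0.00029). The list of 46 genes as a whole was split, with 16 that rose and 11 that fell, and with library totals 11 rose and 15 fell. Falls numbered 6 without Wnt3a replicate 1, Wnt3a replicate 3 or inhibitor replicate 2 and 7 without inhibitor replicate 3.

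Most cytokines and NF-κB components that could be tested rose. Of 18, 15 rose and 0 fell, with a median of 2.0 that stayed at 2.0 when genes without counts in one group were set to their lower bound. Members of low level passed the filter through the group in which they were higher, so this count is not one over the whole list of 29. CXCL8, the neutrophil chemokine interleukin-8, had 0 counts in the 3 Wnt3a libraries together and 226 in the 3 inhibitor libraries. With the Wnt3a group set to a floor of 3 counts in all, it was at least 105-fold higher (adjusted p = 0.00098), at 0.956, 3.11 and 2.93 CPM in the inhibitor libraries. CCL2, the monocyte chemokine, was at 30.9, 19.5 and 37.3 CPM and 212, 155 and 150.4 CPM and rose by 2.56 ± 0.25 (adjusted p = 0.00024). RELB and NFKB2, the subunits of the noncanonical NF-κB dimer, rose by 2.52 ± 0.30 and 1.79 ± 0.16, and NFKBIA and TNFAIP3, feedback inhibitors of the pathway, by 1.54 ± 0.20 and 1.93 ± 0.23 (adjusted p = 0.00047, 0.00017, 0.00071 and 0.00049). IL24, a cytokine of the interleukin-10 family, went from 0.977, 0.596 and 1.2 CPM to 19.2, 13.6 and 15.5 CPM, one of the 15 largest rises, by 4.12 ± 0.29 (adjusted p = 8.5e-05).

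**Figure D3:**
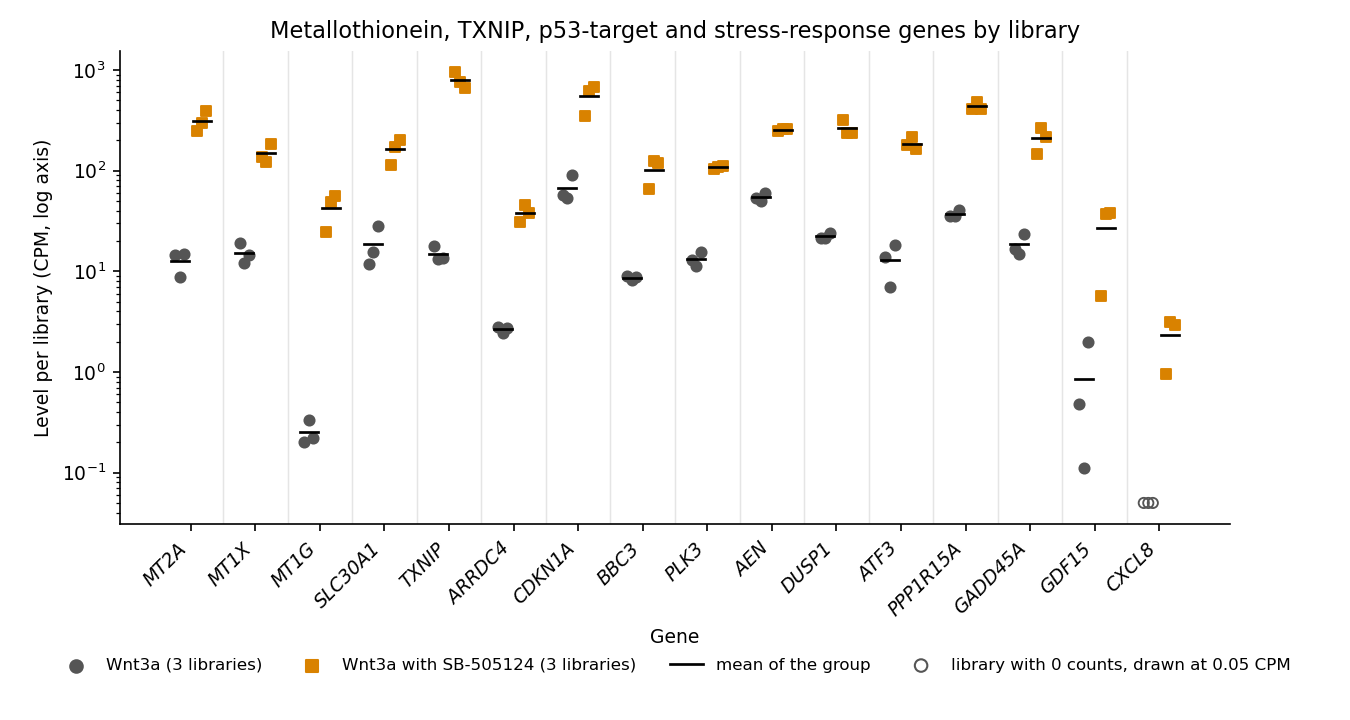
Level in each library (CPM, log axis) of 16 genes that rose: metallothioneins and the zinc exporter SLC30A1, the arrestins TXNIP and ARRDC4, p53 targets, immediate-early and stress genes, and CXCL8. Grey circles are Wnt3a libraries, orange squares inhibitor libraries, black bars group means, and open circles mark libraries with 0 counts. For each gene the 3 inhibitor libraries lie above the 3 Wnt3a libraries.

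MT1G, MT1F, MT1E and MT2A were among the 15 largest rises. They encode metallothioneins, small proteins that bind zinc and copper and that the zinc sensor MTF1 induces. The metallothionein genes lie side by side on chromosome 16, from MT2A, which in GENCODE 29 starts at 56608199, to MT1X, which ends at 56684196 (hg38). Promoter sequence shows the metal response elements to which MTF1 binds. In RefSeq windows of GRCh38.p14, the 250 bases before the RefSeq start of MT2A and of MT1X are printed here 5′ to 3′ on the gene's strand, with every match to the core TGCACNC or TGCGCNC, on either strand, in capitals.
MT2A: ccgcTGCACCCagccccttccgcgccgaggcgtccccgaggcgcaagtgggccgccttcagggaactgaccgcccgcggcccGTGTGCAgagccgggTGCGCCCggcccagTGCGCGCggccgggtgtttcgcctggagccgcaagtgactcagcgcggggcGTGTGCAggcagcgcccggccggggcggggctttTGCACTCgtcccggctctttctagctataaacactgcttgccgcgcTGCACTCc
MT1X: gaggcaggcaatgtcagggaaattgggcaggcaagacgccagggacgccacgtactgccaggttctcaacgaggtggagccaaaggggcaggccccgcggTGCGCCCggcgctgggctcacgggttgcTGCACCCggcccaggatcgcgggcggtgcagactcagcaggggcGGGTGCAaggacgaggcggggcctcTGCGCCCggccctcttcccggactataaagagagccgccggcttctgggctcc
The MT2A window is chr16:56608334-56608583 and the MT1X window chr16:56682220-56682469, both on the plus strand. The MT2A window lies inside the gene as GENCODE 29 annotates it, since that annotation places the start further upstream than RefSeq. MT2A held 7 matches and MT1X 4, and MT1H had 8. SLC30A1, the zinc exporter described below, held 1. MT1E, MT1F, MT1G and MT1M have no RefSeq window among those searched. Of 27305 promoter windows in the table, 24.7% held at least 1 match and 0.366% held 4 or more. A match is a run of letters and not a measured binding site.

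MT2A was at 14.5, 8.81 and 15 CPM in the Wnt3a libraries and 249, 301 and 387 CPM in the inhibitor libraries, and MT1X at 19.2, 12.1 and 14.6 CPM and 136, 122 and 185 CPM. MT1G was at 0.20, 0.331 and 0.222 CPM and 24.6, 48.4 and 55.5 CPM. All 3 genes were higher in every inhibitor library than in any Wnt3a library, with rises of 4.61 ± 0.26, 3.27 ± 0.22 and 7.39 ± 0.41 (adjusted p = 6.2e-05, 8.4e-05 and 6.1e-05), or 24.4-fold, 9.67-fold and 167-fold. MT1F and MT1E rose by 5.88 ± 0.35 and 4.90 ± 0.44 (adjusted p = 7.1e-05 and 0.00018). MT1H and MT1M had 0 counts with Wnt3a and 147 and 105 counts with the inhibitor, at least 68.4-fold and 48.9-fold higher when the Wnt3a group is set to 3 counts in all. The genes of this family are close copies of each other, so the share of reads given to each one is uncertain. SLC30A1, the zinc exporter that MTF1 also induces, is not a copy of them and was at 11.8, 15.6 and 28.1 CPM and 114, 173 and 201 CPM, a rise of 3.14 ± 0.35 (adjusted p = 0.00037). MTF1 rose by 0.89 ± 0.14 (adjusted p = 0.0015). Of the 12 metallothioneins, zinc transporters and MTF1 tested as a list, 10 rose and 1, the zinc importer SLC39A14, fell, with a median of 3.94, the same with MT1H and MT1M at their bounds. The whole list has 18 members, and MT1H and MT1M passed the filter only through the group in which they are high, so the count of rises is not one over the whole list.

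TXNIP (chromosome 1, 145992435 to 145996600), an arrestin-like protein that binds thioredoxin and limits glucose uptake, was at 18, 13.4 and 13.5 CPM and 948, 755 and 659 CPM. It rose by 5.72 ± 0.21 (adjusted p = 2.8e-05), 52.7-fold, with inhibitor replicate 1 the highest. Its promoter is known for the carbohydrate response element through which the glucose-sensing pair of MLXIP (MondoA) or MLXIPL (ChREBP) with MLX induces it. The 250 bases before its RefSeq start, chr1:145996580-145996829 on the minus strand of GRCh38.p14, are printed with the match to the element in capitals. It was searched as CACGNG, 5 bases of any kind and CNCGNG.
TXNIP: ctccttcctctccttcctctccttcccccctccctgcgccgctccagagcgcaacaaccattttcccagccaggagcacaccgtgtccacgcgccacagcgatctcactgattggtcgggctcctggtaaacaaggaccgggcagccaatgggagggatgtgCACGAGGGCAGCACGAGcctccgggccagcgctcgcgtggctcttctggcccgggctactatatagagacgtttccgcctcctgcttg
The element, searched on both strands, was in 0.439% of the 27305 windows, and the window of ARRDC4 held 0. ARRDC4, an arrestin that is the paralog of TXNIP and a target of the same factors, was at 2.8, 2.45 and 2.75 CPM and 31.1, 45.5 and 37.9 CPM and rose by 3.84 ± 0.18 (adjusted p = 3.6e-05). ARRDC3 rose by 1.57 ± 0.18 (adjusted p = 0.00044). The factors themselves moved less: MLXIP fell by 0.81 ± 0.12 and MLX rose by 0.74 ± 0.11, the latter a call lost with TPM (adjusted p = 0.0011 and 0.0013).

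SLC2A3, the glucose transporter GLUT3, was at 3.71, 3.4 and 4.14 CPM and 29.6, 30.0 and 26.6 CPM, while its pseudogene SLC2A3P1 had 548 counts in the Wnt3a libraries and 0 in the inhibitor libraries, at least 131-fold lower. The gene and its copy share sequence, so the split of reads between them is uncertain. Their sum was at 7.41, 7.82 and 8.58 CPM with Wnt3a and 29.6, 30.0 and 26.6 CPM with the inhibitor, 3.62-fold higher on average. SSR4P1, another pseudogene, fell by 4.26 ± 0.44 (adjusted p = 0.00029) while the sum with its parent SSR4 was 1.21-fold higher, so that fall is uncertain in the same way.

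Cell-cycle genes were listed by phase. Of 21 cyclins, kinases and E2F factors of the G1/S step tested, 4 rose and 10 fell, with a median of -0.48. Of 51 DNA replication genes, 6 rose and 23 fell, with a median of -0.37. Of 65 genes of G2 and mitosis, 36 rose and 6 fell, with a median of 0.43. With library totals the mitotic list had 23 rises and 10 falls, with a median of 0.20, and the replication list 5 and 30. With TPM the mitotic list had 21 rises and 9 falls, and its median was 0.08. The replication list had 4 and 29 with TPM and the G1/S list 4 and 10, with medians of -0.63 and -0.72. Leaving out 1 library gave 4 to 6 rises and 9 to 10 falls in the G1/S list and 5 to 8 rises and 19 to 25 falls in the replication list, with 19 falls without Wnt3a replicate 1. In the mitotic list it gave 28 to 42 rises and 3 to 7 falls. Mitotic rises numbered 42 without inhibitor replicate 1, 29 without inhibitor replicate 2 and 28 without inhibitor replicate 3, and mitotic falls 3 without Wnt3a replicate 1.

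Both E-type cyclins, which start S phase with CDK2, fell. CCNE2 was at 42.7, 31.7 and 35.5 CPM and 1.43, 3.73 and 3.43 CPM and CCNE1 at 7.06, 5.79 and 5.47 CPM and 0.368, 0.704 and 0.873 CPM, with no overlap. They fell, with log2 changes of -3.66 ± 0.33 and -3.22 ± 0.34 (adjusted p = 0.00017 and 0.00032). CDC25A, the phosphatase that activates CDK2, fell by 1.39 ± 0.14 and TFDP1, the partner of E2F factors, fell by 1.11 ± 0.12 (adjusted p = 0.00028 and 0.00033). CDK6, a kinase of the D-type cyclins, went up from 9.09, 8.84 and 9.97 CPM to 46.2, 37 and 37.5 CPM, by 2.11 ± 0.13 (adjusted p = 8.1e-05). Among the CDK inhibitors, CDKN1B (p27) was at 51.2, 46.7 and 52.4 CPM and 109, 129 and 116 CPM and rose by 1.24 ± 0.10, and CDKN2D (p19) rose by 1.45 ± 0.19 (adjusted p = 0.00014 and 0.0008). CDKN2A fell by 1.87 ± 0.35 (adjusted p = 0.0035). FEN1, the flap endonuclease of lagging-strand synthesis, was at 135, 113 and 113 CPM and 22.3, 34.5 and 34.6 CPM and fell by 1.98 ± 0.18 (adjusted p = 0.00018). GINS4 and ORC6, subunits of the replicative helicase and of the origin complex, fell, with log2 changes of -1.58 ± 0.16 and -1.38 ± 0.14 (adjusted p = 0.00029 and 0.00028). CDC20, the activator of the anaphase-promoting complex, was at 169, 189 and 202 CPM and 379.9, 384 and 397 CPM, and PLK1, the kinase that drives mitotic entry, at 108, 124 and 154 CPM and 248, 372 and 394 CPM. They rose by 1.05 ± 0.10 and 1.40 ± 0.20 (adjusted p = 0.00019 and 0.0011), and TTK, the spindle-checkpoint kinase MPS1, by 1.0 ± 0.10 (adjusted p = 0.00029). CENPI, a kinetochore subunit, fell by 1.44 ± 0.13 (adjusted p = 0.00019). Shares of cells in each phase were not measured.

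**Figure D4:**
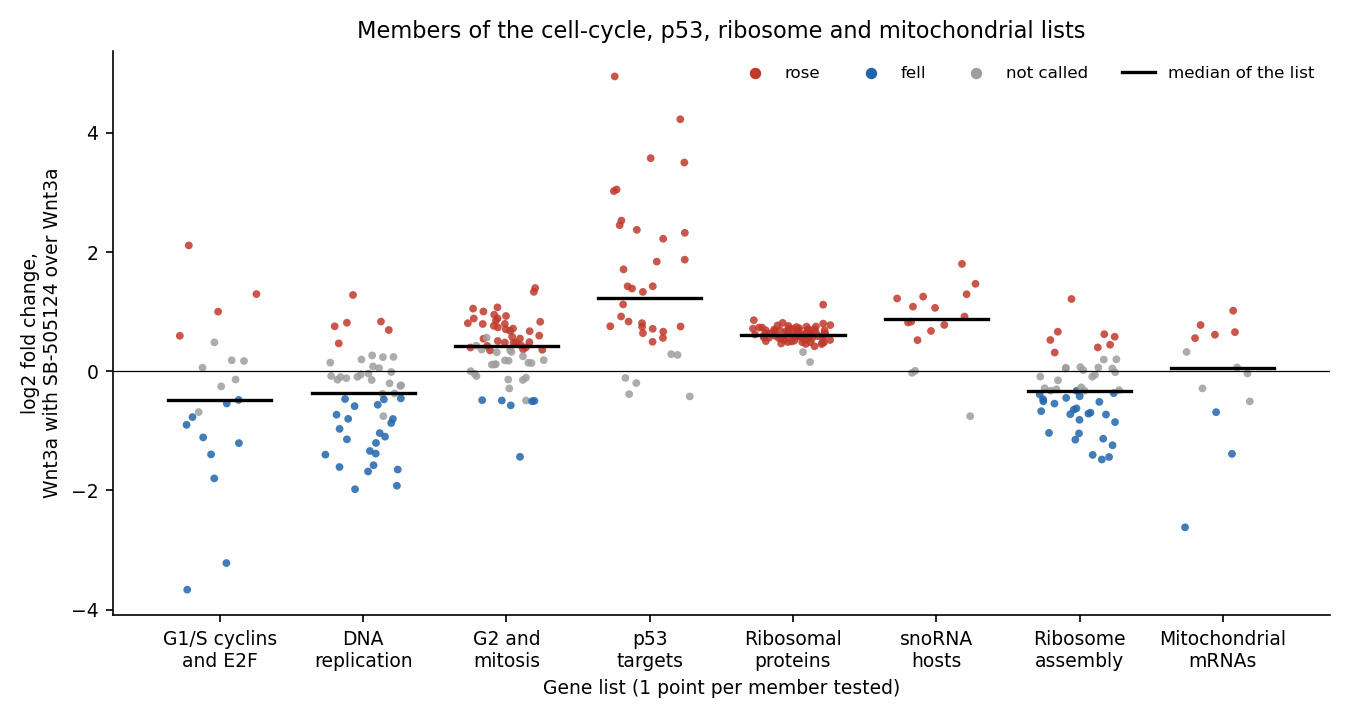
log2 fold change of inhibitor over Wnt3a libraries for each tested member of 8 lists. Red members rose, blue members fell, grey members were not called, and the black bar is the median of the list. With TMM factors, G1/S and DNA replication genes lie mostly below 0 and mitotic genes mostly above, and ribosomal proteins in a narrow band around 0.61.

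Nearly all genes of ribosomal proteins rose. Of 80 tested, 78 rose and 0 fell, with a median of 0.61, which is small in size. Leaving out 1 library gave 69 to 78 rises and 0 falls. With library totals 53 rose and with TPM 27 rose, and none fell in either, the medians being 0.38 and 0.29. RPS9, a protein of the small subunit, was at 762, 705 and 713 CPM and 1362, 1156 and 1176 CPM, and RPLP0, of the large subunit's stalk, at 3484, 3218 and 3397 CPM and 6148, 5189 and 5328 CPM. Every inhibitor library was above every Wnt3a library, with rises of 0.76 ± 0.10 and 0.72 ± 0.11 (adjusted p = 0.0008 and 0.0012). EEF1A1, the elongation factor that brings tRNA to the ribosome, had the largest gain in CPM, from 16024, 13541 and 14636 CPM to 29517, 22229 and 20769 CPM, by 0.71 ± 0.16 (adjusted p = 0.007), a call lost with TPM. Ribosomal protein genes have many processed pseudogenes, so the counts of single members are uncertain.

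These mRNAs begin with a terminal oligopyrimidine (TOP) tract, a C at the start followed by a run of C and T, through which mTORC1 controls their translation. The 10 bases before and the 20 from the RefSeq start (GRCh38.p14) are printed for RPS9, RPLP0 and EEF1A1, with the tract in capitals.
RPS9: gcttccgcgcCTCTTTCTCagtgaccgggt
RPLP0: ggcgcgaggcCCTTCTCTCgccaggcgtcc
EEF1A1: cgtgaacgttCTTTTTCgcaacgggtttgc
The windows are chr19:54200848-54200877 on the plus strand, chr12:120201092-120201121 on the minus strand and chr6:73521013-73521042 on the minus strand. A C followed by at least 4 C or T at the start was found in 4.04% of the 27305 RefSeq starts and in 43 of the 64 ribosomal protein genes with an entry. With the ribosomal protein genes left out, 518 tested protein-coding genes had such a start, of which 47.1% rose and 13.3% fell, against 27.3% and 24.1% of the 9926 without one. Between 10 and 100 CPM, 50.5% of 279 genes with such a start rose, against 32.7% of 5788 without one. The starts are those of RefSeq and were not measured in these cells.

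Many host genes of small nucleolar RNAs also begin with such a tract, and their spliced RNAs decay when translated. In the search above, 5 of the 12 host genes of this list with an entry had such a start (41.7%). Of 16 host genes tested, 13 rose and 0 fell, with a median of 0.88. ZFAS1 was at 162, 157 and 160.3 CPM and 495, 337 and 343 CPM and EPB41L4A-AS1 at 19.6, 20.3 and 19.1 CPM and 80.1, 63.8 and 61.7 CPM, rises of 1.29 ± 0.16 and 1.8 ± 0.12 (adjusted p = 0.0005 and 8.5e-05) with no overlap. GAS5, named for its rise in growth-arrested cells, rose by 1.25 ± 0.29 (adjusted p = 0.0086). Without Wnt3a replicate 3 or without inhibitor replicate 1, 1 host gene passed as fallen. Of 53 ribosome assembly genes, 8 rose and 26 fell, with a median of -0.33, and rises numbered 4 without Wnt3a replicate 2 or inhibitor replicate 2 and 5 without inhibitor replicate 3. POLR1A, the catalytic subunit of RNA polymerase I, was at 133, 128 and 148 CPM and 41.7, 50.6 and 54.1 CPM and fell by 1.48 ± 0.12 (adjusted p = 0.00014). NOP56 and NOLC1, proteins of small nucleolar ribonucleoproteins and their assembly, fell, with log2 changes of -1.24 ± 0.13 and -1.04 ± 0.10, and NOB1, the nuclease that finishes the small subunit's RNA, rose by 1.21 ± 0.10 (adjusted p = 0.00028, 0.00026 and 0.00014).

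Transcripts of the mitochondrial genome changed unevenly along it. The genome is transcribed from both strands into long RNAs that are cut at tRNAs. The rRNAs rose: MT-RNR2 went from 4678, 4711 and 5506 CPM to 13739.5, 13121 and 14129 CPM, by 1.46 ± 0.11 (adjusted p = 0.0001), and MT-RNR1 by 1.07 ± 0.13 (adjusted p = 0.00052). Among 13 mRNAs, 5 rose and 3 fell, and rises numbered 2 without Wnt3a replicate 1, without Wnt3a replicate 2, without inhibitor replicate 2 or without inhibitor replicate 3. With library totals 2 rose and 5 fell, and with TPM 0 rose and 5 fell. MT-ND6 was at 592, 605 and 677 CPM and 80.5, 94.1 and 130.3 CPM and fell by 2.62 ± 0.18 (adjusted p = 8.5e-05), and MT-ND5, its neighbour on the opposite strand, was at 1871, 2148 and 2161 CPM and 576, 904 and 886 CPM and fell by 1.39 ± 0.18 (adjusted p = 0.00067). MT-ND2, by contrast, rose by 1.02 ± 0.24 (adjusted p = 0.0099), a call lost with TPM. MT-CO2 had the largest loss in CPM of any gene called with no overlap, from 4306, 4093 and 5091 CPM to 1969, 3031 and 3385 CPM, and its log2 change of -0.69 ± 0.20 (adjusted p = 0.023) was lost without Wnt3a replicate 1 or Wnt3a replicate 3.

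Mitochondrial tRNA genes, which polyadenylated libraries capture only as unprocessed or tailed RNA, were low with the inhibitor. Of 14 tested, 11 fell and 0 rose. MT-TN was at 47.2, 59.7 and 57 CPM and 4.45, 2.2 and 4.39 CPM and MT-TY at 50.2, 42.3 and 50.9 CPM and 4.52, 2.14 and 3.55 CPM, log2 changes of -3.90 ± 0.27 and -3.82 ± 0.26 (adjusted p = 8.4e-05 and 8.4e-05). MT-TE fell by 3.89 ± 0.31 and MT-TC fell by 3.41 ± 0.31 (adjusted p = 0.00012 and 0.00018). All 4 are annotated on the minus strand, as is MT-ND6. Of 9 mitochondrial genes tested on that strand, 7 fell and 0 rose, and of 20 on the plus strand, 7 fell and 7 rose. The strands differ in the kinds of RNA they hold, since 8 of the 9 minus-strand genes are tRNA genes. Among tRNA genes, 6 of 8 on the minus strand and 5 of 6 on the plus strand fell, with medians of -3.61 and -2.94. The 7 plus-strand rises were 2 rRNAs and 5 mRNAs, and 0 of the mRNAs passed as risen with TPM. The strand setting of the authors' counting is not given in the sources used here, so reads of one strand may have been counted for genes of the other. MTND1P23, a nuclear pseudogene of mitochondrial origin, went from 3.03, 1.26 and 1.11 CPM to 65.3, 22.5 and 6.08 CPM, by 4.12 ± 0.85 (adjusted p = 0.0053), and shares sequence with the mitochondrial genome, so its value is uncertain. Of the 76 nuclear genes of oxidative phosphorylation, 31 rose and 0 fell with TMM factors, and 16 rose and 8 fell with library totals, so they had no direction that held under both. Without inhibitor replicate 1, 1 of them passed as fallen.

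Genes were also counted by the kind of transcript. Of 2111 long noncoding RNAs tested, 118 rose (5.6%) and 765 fell (36.2%), with a median of -0.91, against 27.7% and 23.4% of 13684 protein-coding genes, with a median of 0.02. Long noncoding RNAs are mostly expressed at low levels, so the shares are also given by mean level. Between 1 and 10 CPM, 42.2% of 798 long noncoding and 28.7% of 2809 protein-coding genes fell, and between 10 and 100 CPM, 33.8% of 130 and 24.1% of 7578. By level alone, 44.2% of the 2055 genes over 100 CPM rose and 16.3% fell, while 11.1% of 4091 genes from 1 to 10 CPM rose and 30.7% fell. Of 253 protein-coding genes with a single exon, 121 fell (47.8%), and of 4124 with 11 to 20 exons, 860 fell (20.9%). Falls made up 27.6% of those with 2 to 5 exons, 21.5% with 6 to 10 and 23.4% with 21 or more. The exon classes were not split by mean level. These shares carry no test. TUG1, a long noncoding RNA held partly in the nucleus, was at 206, 224 and 207 CPM and 72.6, 44.6 and 49.5 CPM, and NORAD, which binds Pumilio proteins in the cytoplasm, at 207, 213 and 276 CPM and 57.6, 59.9 and 73.7 CPM. They fell, with log2 changes of -1.94 ± 0.18 and -1.86 ± 0.15 (adjusted p = 0.0002 and 0.00013). FTX and KCNQ1OT1, long chromatin-associated transcripts, fell, with log2 changes of -2.49 ± 0.46 and -2.15 ± 0.48 (adjusted p = 0.0033 and 0.0073). The counting of antisense and overlapping transcripts depends on the strand setting, so these values are uncertain where another gene lies on the opposite strand.

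Genes that act on blood vessels went in both directions. VEGFA, the main growth factor of endothelial cells, was at 34.2, 44 and 30.2 CPM and 21.8, 15.3 and 18.9 CPM and fell by 0.95 ± 0.18 (adjusted p = 0.004), with no overlap. PGF, its relative, went from 0.476, 0.729 and 0.288 CPM to 4.6, 9.95 and 8.51 CPM and rose by 3.94 ± 0.44 (adjusted p = 0.00038). ANGPTL2 fell by 1.65 ± 0.16 and the Notch ligand JAG1 rose by 1.49 ± 0.15 (adjusted p = 0.0002 and 0.00027). Of 34 pro-angiogenic genes tested, 11 rose and 7 fell, and of 22 anti-angiogenic ones 3 and 6, the rises of the latter numbering 5 without Wnt3a replicate 3. THBS1 and VASH1, inhibitors of vessel growth, fell, with log2 changes of -1.59 ± 0.33 and -1.68 ± 0.15 (adjusted p = 0.0058 and 0.00016).

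EWSR1, whose promoter also drives the fusion oncogene, was at 262, 281 and 254 CPM and 174, 173 and 186 CPM and fell by 0.58 ± 0.09 (adjusted p = 0.0014). FLI1 was at 43.1, 45.5 and 47.7 CPM and 47.3, 56.6 and 53.6 CPM and changed by 0.21 ± 0.10, not called (adjusted p = 0.13), with a sign that turns under library totals and TPM. Gene counts do not separate the fusion from the intact genes. Of 60 genes reported to be activated by the fusion, 10 rose and 18 fell, and of 48 reported to be repressed, 14 rose and 18 fell. With library totals 5 activated genes rose and 26 fell, and with TPM 1 rose and 27 fell. For the repressed genes these counts were 12 and 21, and 11 and 21. Among the activated genes, rises numbered 6 without Wnt3a replicate 1, Wnt3a replicate 2 or inhibitor replicate 2, 5 without inhibitor replicate 3 and 15 without inhibitor replicate 1, and falls 11 without inhibitor replicate 2. NKX2-2, a homeobox factor of the tumour, was at 56.1, 74.1 and 83 CPM and 31.4, 35.1 and 38.5 CPM and fell by 1.02 ± 0.16, and GLI1, a Hedgehog effector that the fusion induces, fell by 1.81 ± 0.32 (adjusted p = 0.0015 and 0.0028). The repressed list shares COL1A1, COL1A2, COL6A3 and other members with the matrix lists.

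**Figure D5:**
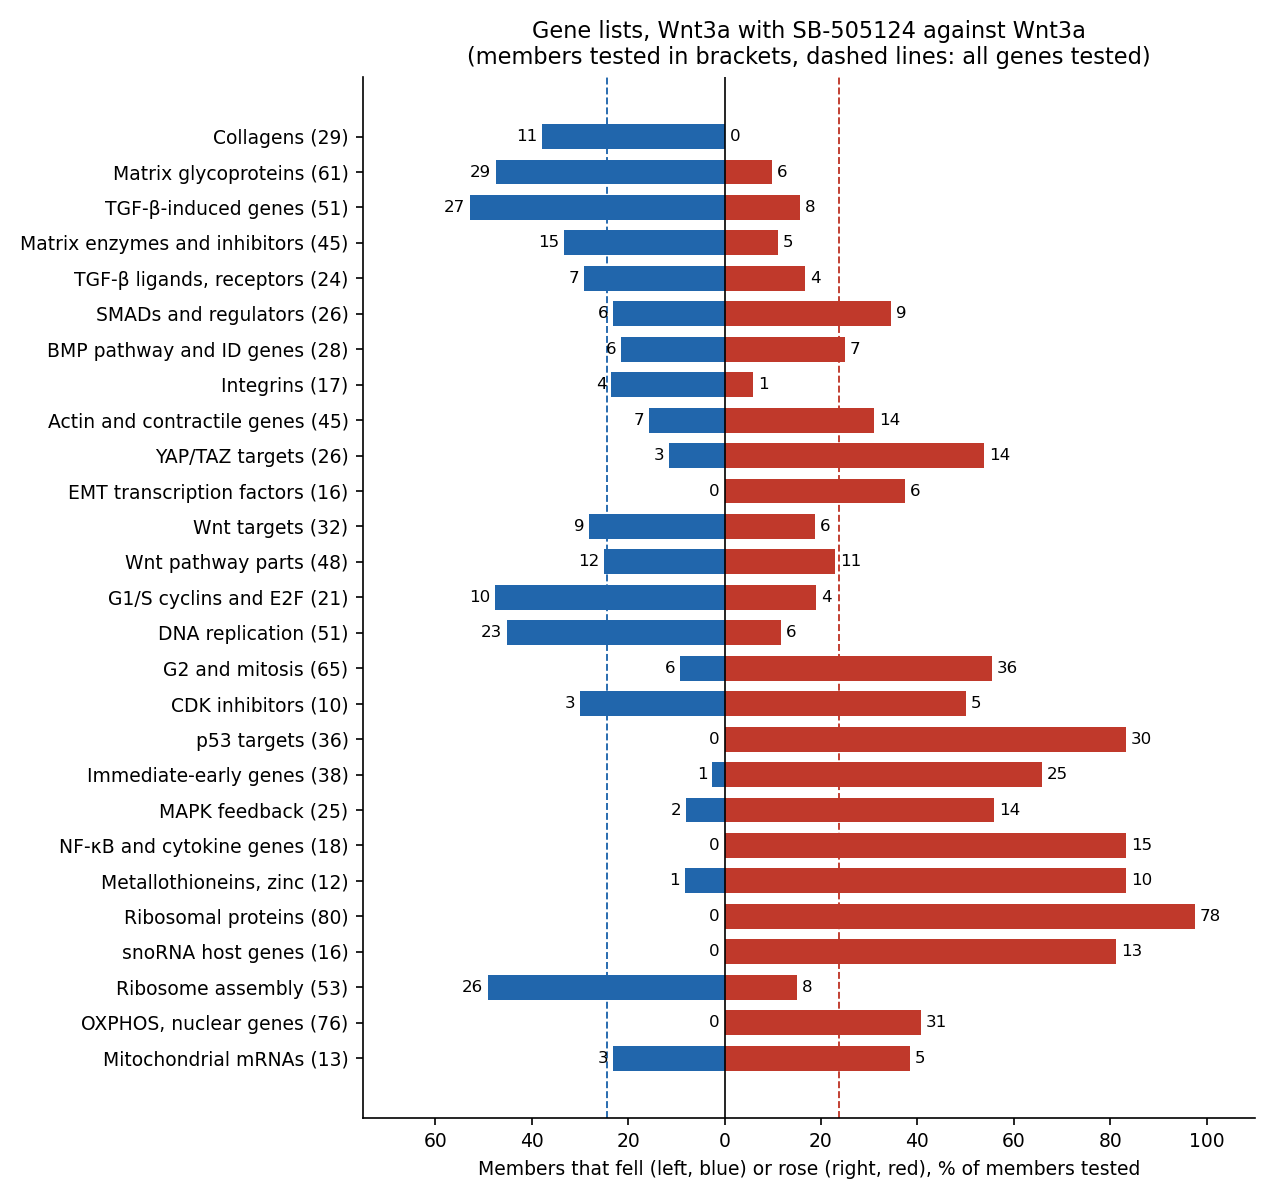
Share of tested members of 27 gene lists that fell (blue, left) or rose (red, right), with the number of genes at the end of each bar and the number tested in brackets. Dashed lines mark the shares among all 17107 genes tested, 24.5% and 23.7%. The matrix and TGF-β-induced lists reach past the blue line, as do the G1/S, DNA replication and ribosome assembly lists, among others. The p53, immediate-early, cytokine, metallothionein, ribosomal protein and snoRNA host lists, among others, reach past the red line.

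Summed markers of epithelial and endothelial cells were below those of the line itself in both groups, while the sum of fibroblast markers, given with the matrix genes, was 477 to 832 CPM with Wnt3a and 323 to 333 CPM with the inhibitor. The 12 Ewing sarcoma markers summed to 2440 to 2890 CPM with Wnt3a and 2460 to 2990 CPM with the inhibitor. Summed levels of 10 epithelial markers were 3.58 to 4.54 and 3.09 to 3.84 CPM, with GRHL2 at 0 counts in all 6 libraries, and those of 10 endothelial markers 25.9 to 30.1 and 12.8 to 21.1 CPM. Sums of 10 leukocyte markers were 4.83 to 6.15 CPM with Wnt3a and 11.1 to 15.2 CPM with the inhibitor, with CD3E and TYROBP at 0 counts in all 6. That rise lay in CD68, a lysosomal protein found in many cell types, which rose by 2.42 ± 0.34, and CD79A, which rose by 1.05 ± 0.23 (adjusted p = 0.001 and 0.0071).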

How the data were processed

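RNA-seq of TC32 cells was compared between 3 libraries with Wnt3a and 3 with Wnt3a and SB-505124. The authors deposited 1 gene table per library. Per the file headers these hold an expected count, an estimated number of fragments per gene that need not be whole, and TPM, a level per gene length with the same sum in every library. Per the submitters' processing notes, CASAVA 1.8.2, Trimmomatic 0.36, STAR 2.5.2a and RSEM 1.2.31 were used with hg38. Neither the annotation release nor the strand setting of the counting is given in the sources used here. RSEM shares reads among near-identical genes by estimate, so single members of such families are uncertain.

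Each table had 58278 rows. Where an identifier appeared in 2 rows, which 45 did, the rows were summed, leaving 58233 genes. Of these, 57895 (99.4%) are in GENCODE 29, which gave gene types, exons and coordinates on hg38. Expected counts were rounded and low genes removed with filterByExpr, leaving 17107. The test was edgeR 4.0.16 (R 4.3.3), quasi-likelihood with TMM factors on the 6 libraries, with 4 residual degrees of freedom, a biological coefficient of variation of 22.2% and Benjamini-Hochberg adjustment at 0.05. TPM served as a check, with limma 3.58.1 on log2(TPM + 1), a scale that understates the change of low genes. DESeq2 1.42.0 was another of the 18 alternatives. RefSeq windows (GRCh38.p14) gave promoters for 10959 of the genes tested. Libraries of one group correlated at 0.963 to 0.983 in log2 CPM and differed by more than counting noise. Each was kept as a sample of its own, though a spread above counting noise does not show that they are separate cultures. The floors of 3 counts cover counting error only, while the standard errors hold the spread between libraries.

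The genes and the 55 lists were chosen with earlier results of these data known, so no p-value is given for a list. Named genes were, among those called with a mean of at least 1 CPM and no overlap, the 15 largest rises and falls in log2 fold change and the 5 largest in CPM, plus a panel of 31 pathway genes and up to 6 members of each list with the smallest adjusted p. Outside this rule, ACTA2, COL6A1, COL6A2, DKK1, FN1, MDM2, MT-RNR1, MT-TC, MT1H, MT1M, MTF1, PLK1, POSTN, SLC39A14, SNAPC1 and SSR4 were named after their values were seen.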

Additional observations from a re-analysis of the deposited data

How the results depend on the processing

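Of 18 alternatives, 16 kept the threshold. In those 16, 4054 genes (49.2% of those called) kept their direction and stayed past the threshold, 1924 risen and 2130 fallen, and in all 18 this held for 2648. With library totals 2696 genes rose, and with TPM 2120 rose. An adjusted p under 0.01 left 5250 genes, of which 2510 fell, and a test against a fold of 1.5 (edgeR glmTreat) left 3315, with 1379 that rose and 1936 that fell. Leaving out 1 library at a time gave 6310 to 9463 genes, the highest without inhibitor replicate 1. With a count in any library as the only filter, the median change was -0.30.

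The replicate number as a block gave 8334 genes, 4081 risen and 4253 fallen. Same-numbered libraries correlated at 0.334, -0.155 and 0.206 in their deviations from the group means, and not every library correlated best with its own number, so the numbers were not taken as pairs.

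For the 204 genes reported here, 3598 of 3664 gene and setting pairs kept the direction and the side of the threshold, 41 lost a call, 16 gained one and 9 turned sign, all 9 in genes that were not called. FLI1 changed by -0.02 with library totals and -0.11 with TPM. NKD1 changed by 0.39 with effective-length offsets, by 0.12 with TPM and by 0.05 without Wnt3a replicate 2, and SKIL by 0.10 with effective-length offsets. Leaving out 1 library gave changes of -0.37 to 0.05 for NKD1, -0.40 to 0.20 for TGFB1 and -0.24 to 0.04 for TGFB3, the sign of TGFB1 turning to 0.15 without Wnt3a replicate 3 and to 0.20 without inhibitor replicate 1. The cause was not tested in any of these.

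Labels do not say whether libraries of a group are separate cultures. With 3 libraries a group, a gene that was not called is not shown to be unchanged, least of all at low counts, where the estimates are least precise. All changes are relative to the other genes, and the direction of those near the shift between scalings can depend on the scaling. Expected counts of close copies are shared by estimate, and the strand setting is unknown here. The inhibitor was not tested without Wnt3a, and protein, cell number and cell-cycle phase were not measured.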

Other observations

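Genes of other metabolic and immune groups also changed when SB-505124 was added to Wnt3a, against a background of 23.7% of genes that rose and 24.5% that fell. Of 37 genes of sterol and fatty-acid synthesis tested, 11 rose and 16 fell (6 and 18 with library totals). ELOVL6 and LSS, an elongase of fatty acids and lanosterol synthase, fell, with log2 changes of -1.74 ± 0.12 and -1.54 ± 0.14. The adjusted p-values (edgeR) were 8.4e-05 and 0.00018, and the groups did not overlap for either gene.

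Of 41 interferon-induced genes tested, 17 rose and 1 fell, with a median of 0.67, and 10 and 2 with library totals. Rises numbered 10 without Wnt3a replicate 1 and 11 without Wnt3a replicate 2, and 2 fell without inhibitor replicate 1. IRF9, a subunit of the factor that interferons activate, was at 12.8, 13.7 and 17.5 CPM and 64.4, 70.6 and 54.5 CPM, IRF7 at 3.96, 3.8 and 7.73 CPM and 15.5, 19.7 and 18.9 CPM, and IFIH1, the sensor of double-stranded RNA MDA5, at 5.23, 5.41 and 8.13 CPM and 17.7, 24.4 and 19.1 CPM. They rose by 2.11 ± 0.16, 1.8 ± 0.29 and 1.71 ± 0.22 (edgeR, adjusted p = 1.0e-04, 0.0018 and 0.00068). Of 18 genes of antigen presentation by MHC class I, 10 rose and 2 fell, and 1 fell in each fit that left out 1 library. TAP1, the peptide transporter, rose by 1.77 ± 0.16 and PSMB8, an immunoproteasome subunit, by 1.09 ± 0.12 (edgeR, adjusted p = 0.00016 and 0.00037). HLA genes resemble each other closely, so their single counts are uncertain.

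Among genes outside the lists, NECTIN4, an adhesion protein, and GRHL3, an epithelial transcription factor, were among the 15 largest rises. NECTIN4 went from 0.501, 0.11 and 0.266 CPM to 11.4, 11.3 and 9.6 CPM and GRHL3 from 0.0501, 0.0884 and 0.244 CPM to 0.846, 3.43 and 2.18 CPM, by 5.21 ± 0.45 and 4.03 ± 0.72 (edgeR, adjusted p = 0.00015 and 0.0027). CYP4F2 and CYP4F3, neighbouring and near-identical cytochrome genes whose split of reads is uncertain, rose by 5.05 ± 0.61 and 4.04 ± 0.33 (edgeR, adjusted p = 0.0005 and 0.00014). SNAPC1, a subunit of the complex that starts transcription of small nuclear RNAs, was chosen after its values were seen and went from 18.1, 15.1 and 16.5 CPM to 212, 307 and 284 CPM, by 4.01 ± 0.17 (edgeR, adjusted p = 2.8e-05), with no overlap. RNVU1-7, a copy of the U1 small nuclear RNA gene whose reads may belong to other copies, had 0 counts with Wnt3a and 190 with the inhibitor, at least 88.4-fold higher when the Wnt3a group is set to 3 counts in all.

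Counts of the other lists follow. Of 38 heat-shock genes, 11 rose and 11 fell, 8 and 18 with library totals and 5 and 17 with TPM. HSPA1A and HSPA1B, which are near-identical, fell, and DNAJA1, their cochaperone, fell by 1.40 ± 0.15 (edgeR, adjusted p = 0.0003). Of 30 NRF2 targets, 11 rose and 4 fell, 7 and 6 with library totals and 3 and 7 with TPM. Rises of NRF2 targets numbered 6 without Wnt3a replicate 1 or 2 and 7 without inhibitor replicate 2 or 3. FTL, the ferritin light chain, rose by 1.49 ± 0.15 (edgeR, adjusted p = 0.00028). Of 43 glycolysis and hypoxia genes, 12 rose and 12 fell. NDRG1, a hypoxia and stress target, rose by 2.08 ± 0.22 (edgeR, adjusted p = 0.00031). Of 33 FOXO and insulin-pathway genes, 14 rose and 6 fell, 13 and 8 with library totals and 9 and 9 with TPM. KLHL24, an adaptor of a ubiquitin ligase, and PIK3IP1, an inhibitor of PI3 kinase, rose by 2.24 ± 0.12 and 1.95 ± 0.17 (edgeR, adjusted p = 6.1e-05 and 0.00015). Of 19 MYC network genes, 6 rose and 8 fell, the falls numbering 5 without Wnt3a replicate 1 or inhibitor replicate 3. MXD1, a partner of MAX that opposes MYC, rose by 2.91 ± 0.32 (edgeR, adjusted p = 0.00034).

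Of 21 Notch genes tested, 2 rose (4 without inhibitor replicate 1) and 6 fell, with LFNG, which modifies Notch receptors, having fallen the most among those named, from 4.03, 2.72 and 1.84 CPM to 0.331, 0.352 and 0.249 CPM, a log2 change of -3.19 ± 0.41 (edgeR, adjusted p = 0.00066). Of 28 semaphorins and plexins, 3 rose and 6 fell, 3 and 11 with library totals and 2 and 9 with TPM, and 1 rose without Wnt3a replicate 1. SEMA3F fell by 1.90 ± 0.34 (edgeR, adjusted p = 0.0027). Of 12 genes of the IGF axis, 1 rose (2 without inhibitor replicate 1) and 5 fell. Of 17 BCL2 family genes, 7 rose and 4 fell, the falls numbering 2 without inhibitor replicate 2. Of 42 proteasome genes, 16 rose and 5 fell, 9 and 11 with library totals and 4 and 12 with TPM. Falls numbered 1 without Wnt3a replicate 1 and 3 without Wnt3a replicate 3, inhibitor replicate 2 or inhibitor replicate 3. PSME3, a nuclear activator of the proteasome, fell by 1.49 ± 0.09 (edgeR, adjusted p = 8.1e-05). Of 10 CDK inhibitors and pocket proteins, 5 rose and 3 fell. Of 13 genes of the TXNIP group, 6 rose and 3 fell. Of 23 histone genes, whose mRNAs mostly lack poly(A) tails, 3 rose and 2 fell, 2 and 5 with library totals and 1 and 3 with TPM. Without Wnt3a replicate 1, 1 rose, and 4 fell without inhibitor replicate 1, against 1 without any one of the others. Of 39 RNA polymerase II and elongation genes, 17 rose and 7 fell, 14 and 9 with library totals and 9 and 10 with TPM, with HEXIM1, the inhibitor of P-TEFb, falling from 50.2, 54 and 47.1 CPM to 22, 18.3 and 22.7 CPM, a log2 change of -1.26 ± 0.12 (edgeR, adjusted p = 0.00021). Of 10 long noncoding RNAs fixed as a list, 1 rose and 6 fell. Of 12 Ewing sarcoma markers, 1 rose and 4 fell, the rises numbering 3 without Wnt3a replicate 3 and 2 without inhibitor replicate 1.

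Genes commonly used as references were not level under these scalings. Of 19 tested, 8 rose and 1 fell, 5 and 3 with library totals and 4 and 4 with TPM, and 0 fell without Wnt3a replicate 1, Wnt3a replicate 3 or inhibitor replicate 3.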
